A study of Mus musculus with 8 samples.

Results

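The genes described here are 10 members of the circadian clock: the activators Arntl, Clock and Npas2, the period genes Per2 and Per3, the cryptochromes Cry1 and Cry2, the REV-ERB receptors Nr1d1 and Nr1d2, and the output factor Dbp. They were taken by name, through the RefSeq accession of their probes, from the 22909 named genes on the array. All 10 had a probe and were among the 15744 genes tested. They were covered by 19 probes, and 17 of these were well above background on all 8 arrays.

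Mouse heart ventricle was sampled in homozygous Tnnt2 ΔK210 knock-in mice (KI), in which both copies of the cardiac troponin T gene lack the codon of 1 lysine, and in wild-type mice (WT). Each genotype was taken at 1 week of age and on the day of birth, with 2 arrays in each of 4 groups. The deletion, known from inherited dilated cardiomyopathy, is present in the germline and so in every cell type, and per the labels each RNA combined 3 ventricles. Whether both arrays of a group were made from different pools is not stated, so p-values measure only their spread, part or all of which may be technical; the hour of collection and the lighting are not given in the labels.

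The molecular clock is a transcriptional feedback loop. ARNTL (BMAL1) pairs with CLOCK or its relative NPAS2 and drives the Per, Cry, Nr1d and Dbp genes through E-boxes, and PER and CRY proteins then repress that pair. In a stabilising loop, the REV-ERB proteins repress Arntl through elements to which the ROR receptors also bind, and DBP activates genes that carry a D-box. In the adult mouse heart these transcripts cycle over the day, with Arntl and Npas2 high when Nr1d1 and Dbp are low, so the level of any member depends on the hour of collection as well as on age or genotype.

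All arrays were on 1 slide and were read in 1 scan. The 75th percentile of signal ranged from 342 to 523 intensity units and 58.9% to 63.1% of probes were well above background; the number of arrays limits the precision. Age and slide row cannot be told apart, because row 2 held the 1-week arrays and row 1 the birth arrays. Nor can genotype and slide column at birth, with KI in columns 3 and 4 and WT in columns 1 and 2. The deposited value table and the scanner files name different samples for 3 of the 4 arrays at 1 week, which are therefore called A to D. By the value table, used here unless stated, B and C were KI and A and D were WT. By the scanner files, C and D were KI and A and B were WT. Arrays A to D lay in slide columns 1 to 4 in that order. By the scanner files, genotype and slide column therefore cannot be told apart at 1 week either. By the value table, KI held columns 2 and 3 and WT columns 1 and 4. Array D had the lowest 75th percentile, and KI birth replicate 1 was marked for evaluation by the scanner's quality check. The 8 ventricular cardiomyocyte markers summed to between 2358 and 2592 times the 75th percentile at 1 week and to between 2328 and 2504 times at birth. The 6 atrial markers summed to 410.3, 484, 70.4 and 486 on arrays B, C, A and D and to between 439 and 586 at birth, so array A stood apart in atrial transcripts. Skeletal muscle markers summed to 45.0, 28.0, 58.1 and 24.2 on arrays B, C, A and D and to between 43.9 and 59.0 at birth. Erythroid markers summed to 167, 259, 109 and 184 on the same arrays and to between 122 and 161 at birth. The part of these tissues in the clock gene levels was not tested.

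Promoter windows of 250 bases before to 50 bases after the start site were found in RefSeq (GRCm38.p6) for 9 of the 10 members, Per2 being the exception, in 12 windows. Each was searched on both strands for an E-box (CACGTG), an E-box variant (CACGTT, shown as AACGTG where it lies on the opposite strand), a D-box (TTATGTAA or TTACGTAA), the core of a ROR element (TAGGTCA or TGGGTCA) and a cAMP response element (TGACGTCA). CACGTG, TTACGTAA and TGACGTCA read the same on both strands, the E-box and its variant differ in 1 letter, and no matches overlapped in the member windows. The windows of Per3 (D-box), Arntl (ROR core), Cry1 (E-box and its variant) and Nr1d1 (the variant) are printed to show each motif that was found; that of Cry2, which holds the same variant, is not printed. They stand 5′ to 3′ on the gene's strand, with matches in capitals.
Per3 (chr4:151044616-151044915, minus strand): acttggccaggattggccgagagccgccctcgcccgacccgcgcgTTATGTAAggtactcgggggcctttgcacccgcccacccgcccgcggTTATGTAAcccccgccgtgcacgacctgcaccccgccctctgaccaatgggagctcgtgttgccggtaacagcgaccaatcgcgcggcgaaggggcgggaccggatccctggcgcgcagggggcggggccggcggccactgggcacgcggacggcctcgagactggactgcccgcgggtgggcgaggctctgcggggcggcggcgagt
Nr1d1 (chr11:98775328-98775627, minus strand): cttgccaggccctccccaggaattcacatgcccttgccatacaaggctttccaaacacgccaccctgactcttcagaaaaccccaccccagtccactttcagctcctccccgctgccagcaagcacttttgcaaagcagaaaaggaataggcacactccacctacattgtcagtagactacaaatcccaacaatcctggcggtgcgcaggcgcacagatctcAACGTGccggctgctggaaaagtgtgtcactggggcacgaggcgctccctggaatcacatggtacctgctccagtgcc
Arntl (chr7:113207261-113207560, plus strand): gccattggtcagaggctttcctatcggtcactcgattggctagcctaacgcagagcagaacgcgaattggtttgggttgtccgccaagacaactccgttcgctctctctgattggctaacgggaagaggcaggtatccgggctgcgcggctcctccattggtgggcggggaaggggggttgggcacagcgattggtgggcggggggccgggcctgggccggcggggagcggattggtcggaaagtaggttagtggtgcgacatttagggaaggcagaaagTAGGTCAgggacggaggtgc
Cry1 (chr10:85185005-85185304, minus strand): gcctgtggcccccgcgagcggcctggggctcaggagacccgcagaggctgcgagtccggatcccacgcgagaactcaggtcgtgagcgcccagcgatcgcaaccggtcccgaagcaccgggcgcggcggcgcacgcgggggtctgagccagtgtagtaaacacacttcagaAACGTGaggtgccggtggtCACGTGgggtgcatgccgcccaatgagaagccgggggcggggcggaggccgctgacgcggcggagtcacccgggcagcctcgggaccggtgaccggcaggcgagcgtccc

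With the start site as position 0, the Per3 window held the D-box TTATGTAA at -205 to -198 and again at -158 to -151. A D-box was found in 1.06% of the 32851 mouse promoter windows and in 1 of the 9 members with a window. Here and below a member counts once, although the 9 members have 12 windows, so member counts and shares of windows are in different units. The E-box was found in 1 member, Cry1, at -60 to -55, against 7.15% of all windows. Its variant was found in 3 members, Cry1 at -79 to -74, Cry2 at -166 to -161 and Nr1d1 at -28 to -23, against 4.68% of all windows. The ROR core was found in Arntl alone among the members, at 30 to 36 in the second of its 2 overlapping windows, against 6.45% of all windows. No member window held the cAMP response element, found in 1.79% of all windows, and the windows of Clock, Npas2, Nr1d2 and Dbp held none of the 5 motifs. A match is a description of the letters in these windows and not evidence of binding.

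**Figure D1:**
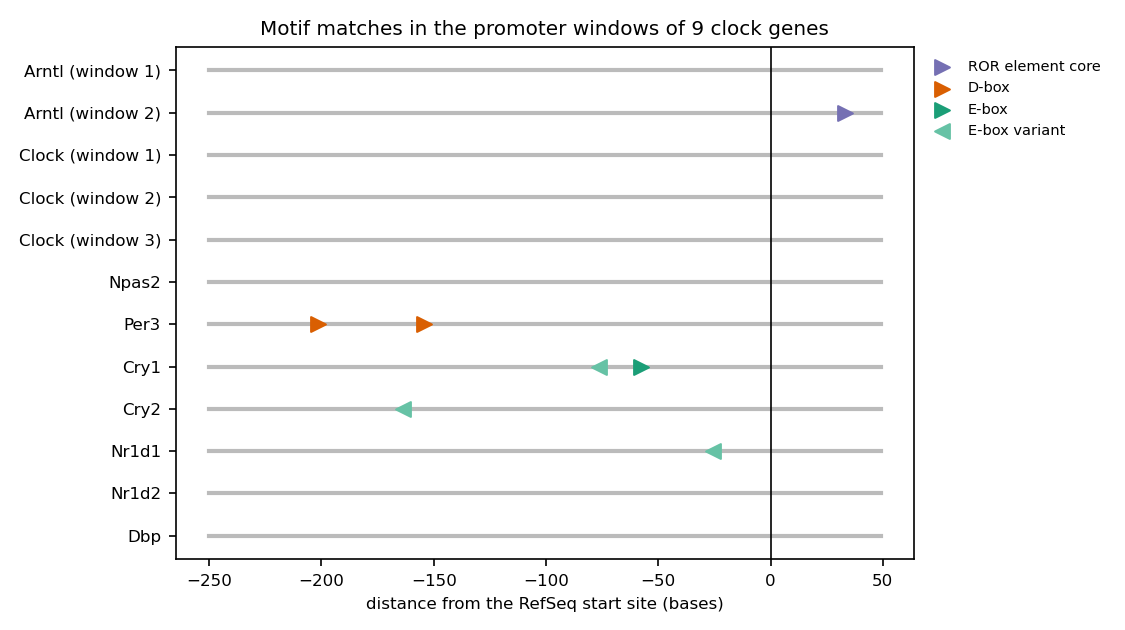
Motif matches in the 12 promoter windows of 9 clock genes, by distance in bases from the RefSeq start site; a triangle pointing right marks a match on the gene's strand (or a motif that reads the same on both) and one pointing left a match on the opposite strand. Per3 carries the only D-box pair and Cry1 the only CACGTG.

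Levels are given as log2 signal of a gene's brightest probe relative to the 75th percentile of its array. They serve to compare arrays for 1 gene, not genes with one another, because probes differ in brightness. In whole ventricle, fewer cells of a type and less RNA per cell cannot be told apart.

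Clock genes past the threshold were found for age and not for genotype. Per2 was lower at 1 week than at birth, and Per3 and Dbp were higher. These 3 of 10 members passed an adjusted p of 0.05 over both genotypes, 2 of them higher and 1 lower. Of all 15744 genes tested, 29.3% passed, 14.8% higher and 14.5% lower, so the members' share was close to the background. The median difference was 0.18 over the members and -0.03 over all genes tested. Taking whole arrays, 5 members had no overlap between the ages (Clock, Per3, Cry2 and Dbp with all 1-week arrays above all birth arrays, and Per2 with all below), against 35.6% of all genes tested (16.2% above and 19.4% below).

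Per2, a repressor of the loop that also responds to glucocorticoid and other systemic signals, stood at 0.72 and 0.97 on KI arrays B and C and at 0.46 and 0.60 on WT arrays A and D at 1 week. At birth it stood at 1.75 and 1.71 in KI and at 1.67 and 2.03 in WT. All 1-week arrays lay below all birth arrays. The 1 week minus birth difference was -1.10 ± 0.12 on the log2 scale (SE; 2 arrays in each of 4 groups), with a 95% interval of -1.38 to -0.82 and an adjusted p of 0.0009 by limma, which is a 2.14-fold lower signal at 1 week. Per2 has a second, much dimmer probe, well above background on 7 of 8 arrays, for which the difference was -0.31 ± 0.22. With the mean of both probes the difference was -0.71 and still passed, so the size of the Per2 difference rests on the brighter probe.

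Per3 encodes a period protein that is not needed for the core rhythm in mice. Its signal was 0.46 and 0.13 on KI arrays B and C and 0.31 and 0.19 on WT arrays A and D at 1 week, against -0.54 and -0.71 in KI and -0.40 and -0.48 in WT at birth. Every 1-week array lay above every birth array, the opposite direction to Per2. The difference was 0.80 ± 0.11 (95% interval 0.55 to 1.06, limma adjusted p = 0.0023), or 1.75-fold higher at 1 week. The second Per3 probe gave 0.78 ± 0.23.

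Dbp, the PAR bZIP activator that is among the transcripts with the strongest daily rhythm in liver and heart, stood at 3.58 and 3.45 on KI arrays B and C and at 3.55 and 3.44 on WT arrays A and D at 1 week. At birth it stood at 2.90 and 3.15 in KI and at 2.98 and 3.18 in WT. The ages did not overlap, and the 1-week arrays were within 0.14 of one another. The difference was 0.45 ± 0.10 (95% interval 0.21 to 0.69, limma adjusted p = 0.0185), or 1.37-fold higher at 1 week, and the second Dbp probe gave 0.50 ± 0.12. The call was lost without KI 1-week replicate 1 (array B; 0.42), KI birth replicate 1 (0.39) or WT birth replicate 1 (0.40). With any 1 array left out the difference lay between 0.39 and 0.51. Such a fit leaves 1 array in a group and has less precision.

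**Figure D2:**
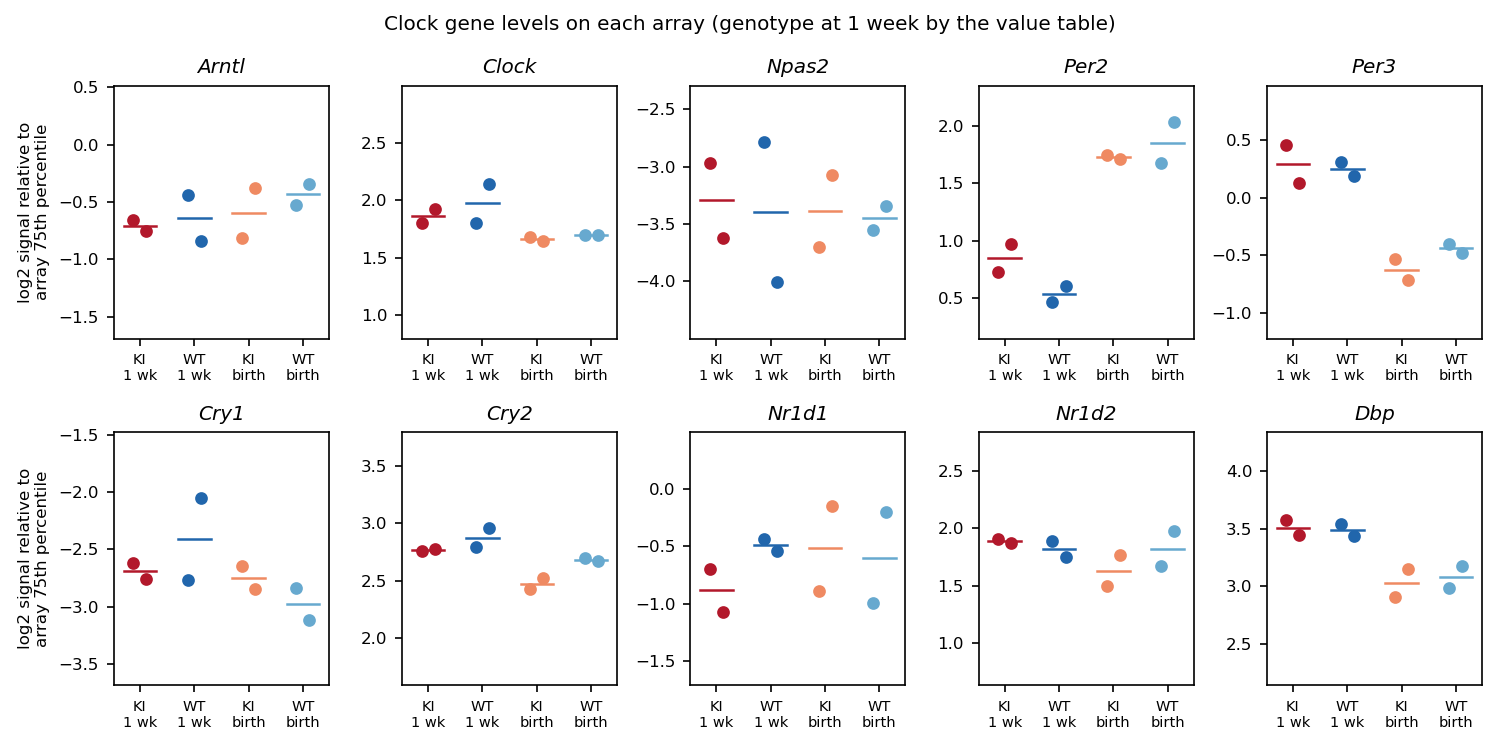
Log2 signal of each clock gene's brightest probe relative to the array's 75th percentile, with 1 point per array and a line at the mean of the 2 arrays of a group; groups run from KI and WT at 1 week to KI and WT at birth, with genotype at 1 week by the value table. All panels span the same number of log2 units, and Per2 lies lower and Per3 and Dbp higher on all 4 arrays at 1 week than on all 4 at birth.

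Among the cryptochromes, the strongest repressors of the loop, Cry2 had levels of 2.76 and 2.78 (KI) and 2.79 and 2.95 (WT) at 1 week, against 2.43 and 2.52 (KI) and 2.69 and 2.67 (WT) at birth. The ages did not overlap, but the difference of 0.24 ± 0.09 did not pass (limma adjusted p = 0.0735). It passed with quantile normalization (0.31, adjusted p = 0.0489), with normexp background correction (0.31, adjusted p = 0.0232) and without WT 1-week replicate 1 (array A; 0.28, adjusted p = 0.0472). Cry1 had levels of -2.62 and -2.76 (KI) and -2.76 and -2.05 (WT) at 1 week, against -2.65 and -2.85 (KI) and -2.84 and -3.11 (WT) at birth. Array D was the high one, the ages overlapped, and the difference was 0.31 ± 0.17 (adjusted p = 0.207), with -0.14 ± 0.24 from the other Cry1 probe. Without array A the Cry1 difference was 0.49 with an adjusted p of 0.0249.

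Clock, the partner of ARNTL, stood at 1.80 and 1.92 (KI) and 1.80 and 2.14 (WT) at 1 week, against 1.67 and 1.65 (KI) and 1.69 and 1.70 (WT) at birth. The 4 birth arrays lay within 0.05 of one another, and all 1-week arrays lay above them. The difference was 0.24 ± 0.10 and did not pass (limma adjusted p = 0.126). It passed with normexp background correction (0.34, adjusted p = 0.0225) and without array A (0.32, adjusted p = 0.0342). The other Clock probes gave 0.04 ± 0.14 and, for one well above background on only 3 arrays, 0.94 ± 0.31.

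Arntl, the only core member whose loss alone stops behavioural rhythms in mice, stood at -0.66 and -0.75 (KI) and -0.44 and -0.84 (WT) at 1 week, against -0.82 and -0.37 (KI) and -0.53 and -0.34 (WT) at birth. The ages overlapped, with a difference of -0.16 ± 0.14 (limma adjusted p = 0.434, 95% interval -0.50 to 0.18). Its 2 dimmer probes gave 0.39 ± 0.20 and 0.40 ± 0.24, in the opposite direction, and both were highest on array D. For Npas2, which can stand in for Clock, the levels were -2.97 and -3.62 (KI) and -2.79 and -4.01 (WT) at 1 week, against -3.70 and -3.07 (KI) and -3.55 and -3.34 (WT) at birth. Its 1-week arrays spread over 1.22 log2 units. The difference of 0.07 ± 0.30 has a 95% interval of -0.64 to 0.78, so the data allow an age difference of either sign within those bounds.

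The REV-ERB receptors are haem-binding repressors of Arntl. Nr1d1 stood at -0.69 and -1.07 (KI) and -0.43 and -0.54 (WT) at 1 week, against -0.89 and -0.15 (KI) and -0.99 and -0.20 (WT) at birth. Within each genotype at birth its 2 arrays were 0.74 and 0.79 apart, wider than in 95.4% of tested genes in KI and 96.2% in WT, and the age difference was -0.13 ± 0.23 (limma adjusted p = 0.705). Nr1d2 stood at 1.90 and 1.87 (KI) and 1.89 and 1.75 (WT) at 1 week, against 1.5 and 1.76 (KI) and 1.67 and 1.97 (WT) at birth. The ages overlapped (0.13 ± 0.11, adjusted p = 0.421), and its other probe gave 0.19 ± 0.13.

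Within genotypes the same pair of period genes passed in KI and in WT, where 10.6% and 19% of all genes tested passed. Per2 was lower at 1 week in both, with differences of -0.88 ± 0.17 in KI (limma adjusted p = 0.0191) and -1.32 ± 0.17 in WT (adjusted p = 0.0036). The dimmer Per2 probe gave -0.65 ± 0.31 in KI and 0.02 ± 0.31 in WT, and with the mean of both probes Per2 missed the threshold in KI (-0.76, adjusted p = 0.0826) and in WT (-0.65, adjusted p = 0.0864). Per3 was higher by 0.92 ± 0.15 in KI (adjusted p = 0.0127) and by 0.69 ± 0.15 in WT (adjusted p = 0.0253). For Dbp the differences were 0.49 ± 0.15 in KI (adjusted p = 0.0877) and 0.41 ± 0.15 in WT (adjusted p = 0.0906), neither of which passed; with normexp background correction Dbp passed in KI (0.55, adjusted p = 0.0425). The values for Cry2 were 0.29 ± 0.12 and 0.19 ± 0.12 and for Clock 0.20 ± 0.15 and 0.28 ± 0.15, in KI and WT in that order, and did not pass. By the scanner files the same pair passed in both genotypes. In KI and WT in that order, Per2 was -0.94 ± 0.19 and -1.26 ± 0.19 there, and Per3 0.78 ± 0.12 and 0.82 ± 0.12. Npas2 did not pass in that record, at -0.43 ± 0.24 and 0.57 ± 0.24. The share of all genes that passed in that record is not given.

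Several calls within genotypes were lost when 1 array was left out, which leaves 1 array in its group and lowers precision. In KI the Per2 adjusted p was 0.117 without array B, 0.0582 without array C, 0.0885 without birth replicate 1 and 0.0936 without birth replicate 2, and the Per3 adjusted p was 0.0794 without array B and 0.0865 without birth replicate 2. In WT the Per3 adjusted p was 0.0555 without array A, 0.0600 without array D, 0.0932 without birth replicate 1 and 0.110 without birth replicate 2, whereas Per2 passed in each case. The Per3 adjusted p in WT was also 0.0533 with no filter on dim probes and 0.0588 with only the arrays compared in the fit. The differences kept their sign throughout, between -1.01 and -0.76 for Per2 in KI and between 0.63 and 0.82 for Per3 in WT over all alternatives. By the value table no member passed for a difference between the genotypes in its age difference (0 of 10 past the limma threshold, against 0.00635% of all genes tested, and 0 at an unadjusted p under 0.05, against 4.85%). The KI minus WT contrast of the age differences was 0.44 ± 0.23 for Per2 (95% interval -0.11 to 0.99), 0.24 ± 0.22 for Per3 (-0.28 to 0.75) and 0.07 ± 0.21 for Dbp (-0.42 to 0.56). By the scanner files 0 of 10 passed as well, against 0% of all genes tested by limma, and 1 member had an unadjusted p under 0.05, against 6.29%. That member was Npas2, at -1.0 ± 0.34 (95% interval -1.80 to -0.19, adjusted p = 0.776) by the scanner files and 0.04 ± 0.60 by the value table.

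**Figure D3:**
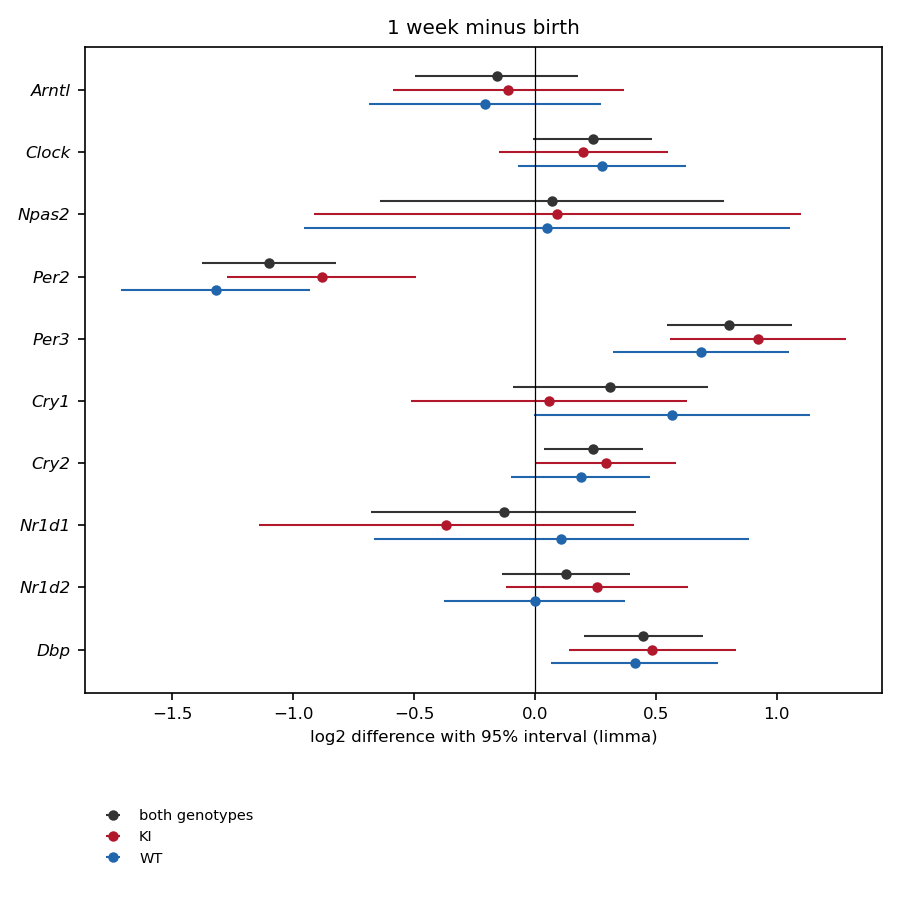
The 1 week minus birth difference of each clock gene on the log2 scale with its 95% limma interval, over both genotypes, in KI and in WT. Genotype at 1 week is by the value table. The intervals of Per2 lie below 0 and those of Per3 and Dbp above 0 in all 3 comparisons, and those of Arntl, Clock, Npas2, Cry1, Nr1d1 and Nr1d2 reach 0. That of Cry2 lies above 0 over both genotypes (0.04 to 0.45) and in KI (0.006 to 0.58) and reaches 0 in WT (-0.10 to 0.48).

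Cell type markers moved with age on the same arrays. All 6 neutrophil markers were lower at 1 week, with sums of 2.93 to 5.08 times the 75th percentile, against 11.6 to 24.2 at birth. Higher at 1 week were 4 of 6 fibroblast markers (sums 323 to 408, against 167 to 198), 4 of 6 macrophage markers (10.7 to 14.3, against 6.88 to 8.72) and 3 of 6 endothelial markers (51.5 to 69.7, against 42.1 to 43.9). Of 6 smooth muscle and pericyte markers 4 were higher and 1 lower (55.0 to 64.6, against 39.7 to 50.4), and 3 of 6 adipocyte markers were higher (177 to 252, against 173 to 199). None of the 8 ventricular cardiomyocyte markers passed. The part of these cell types in the differences of Per2, Per3 and Dbp was not tested.

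Beyond the members, 30 of 32 listed clock-related genes were tested for age, and 3 were higher and 6 lower at 1 week, against 29.3% of all genes tested in either direction. The largest share was among transcripts that cycle in many mouse organs, with 1 higher and 5 lower of 12. Of all genes tested, 14.8% were higher and 14.5% lower. The median difference was -0.33 in this list, against -0.03 over all genes tested. The lists were chosen with earlier results of these data known, so such a share may come from the choice and is a description. Klf15, a Krüppel-like factor that responds to glucocorticoids and controls cardiac metabolism, was lower at 1 week, at -2.05 ± 0.25 (limma adjusted p = 0.0016). Its levels were 0.73 and 0.41 (KI) and 0.64 and 0.28 (WT) at 1 week, against 2.20 and 2.85 (KI) and 2.11 and 3.09 (WT) at birth, with no overlap. Per1, the period gene with the fastest response to glucocorticoid and cAMP signals, was lower at -1.21 ± 0.22 (limma adjusted p = 0.0082). It stood at 3.39 and 3.52 (KI) and 3.95 and 3.10 (WT) at 1 week, against 4.55 and 4.86 (KI) and 4.38 and 5.0 (WT) at birth. Per1 and Per2 thus had the same direction with age. The part of glucocorticoid signals in these age differences was not tested.

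Tsc22d3, which encodes the glucocorticoid-induced leucine zipper, was lower at -0.62 ± 0.10 (limma adjusted p = 0.0050). Ucp3, a mitochondrial carrier of muscle, was higher by 0.46 ± 0.12 (adjusted p = 0.0313). The remaining lower pair, Wee1 and Tspan4, is named although it falls outside the naming rule: -0.39 ± 0.11 (adjusted p = 0.0403) and -0.31 ± 0.09 (adjusted p = 0.0477). These 3 lay near the threshold, and over all alternatives the highest adjusted p was 0.104 for Ucp3, 0.253 for Wee1 and 0.146 for Tspan4. The Ucp3 call was lost without array A, array B, KI birth replicate 1 or either WT birth array, the Wee1 call held only without array A or KI birth replicate 2, and the Tspan4 call was lost without any 1 of the 8 arrays.

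Of 9 tested kinases and turnover factors, Timeless, a replication fork protein that is related to the fly clock gene, was higher by 0.89 ± 0.13 (limma adjusted p = 0.0029). Csnk1e, a kinase that marks PER proteins for degradation, was lower at -0.61 ± 0.12 (adjusted p = 0.0087). The ubiquitin ligase gene Fbxw11 (-0.21 ± 0.11, adjusted p = 0.186) did not pass. Of 7 tested genes of the second loop, only Bhlhe40, a repressor that competes at E-boxes, passed, at 0.65 ± 0.20 (adjusted p = 0.0460; up to 0.129 over the alternatives). Its call held when array B or KI birth replicate 2 was left out and was lost when any other array was. Rora (0.36 ± 0.16) and Nfil3 (-0.20 ± 0.13) did not. The PAR bZIP relatives of Dbp were on its side without passing, Hlf at 0.63 ± 0.20 (adjusted p = 0.0526) and Tef at 0.25 ± 0.08 (adjusted p = 0.0672). Over the alternatives the adjusted p ranged from 0.0277 to 0.142 for Hlf and from 0.0103 to 0.188 for Tef.

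Genotype did not move any member past the threshold at either age. By the value table, at 1 week, 0 of 10 members passed the limma threshold, against 0.0508% of all genes tested, and 0 had an unadjusted p under 0.05, against 7.06%. Per2 had the only level that lay higher on both KI arrays than on both WT arrays, at 0.72 and 0.97 against 0.46 and 0.60, with a difference of 0.31 ± 0.17 (95% interval -0.08 to 0.71, adjusted p = 0.689). Nr1d1 (-0.40 ± 0.33) and Cry2 (-0.11 ± 0.12) lay lower on both KI arrays. These 3 of 10 members without overlap compare with 37.9% of all genes tested. The other differences were -0.28 ± 0.24 for Cry1, -0.11 ± 0.15 for Clock, -0.07 ± 0.20 for Arntl, 0.02 ± 0.15 for Dbp, 0.05 ± 0.15 for Per3, 0.07 ± 0.16 for Nr1d2 and 0.10 ± 0.43 for Npas2. The dimmer Per2 probe went the other way, at -0.37 ± 0.31. Array A, which had few atrial transcripts, is 1 of the WT arrays in both records, and its part in these values was not tested.

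By the scanner files, too, 0 of 10 members passed at 1 week, against 0.00635% of all genes tested. One member, Npas2, had an unadjusted p under 0.05, against 9.87% of all genes, with -0.94 ± 0.24 and an adjusted p of 0.428. The sign of the KI minus WT difference turned between the records for Clock (0.23), Npas2, Per3 (-0.23), Cry1 (0.28), Cry2 (0.09), Nr1d2 (-0.08) and Dbp (-0.12), and was kept for Arntl, Per2 and Nr1d1. In the scanner-file record 6 members did not overlap, Clock with KI above WT and Arntl, Npas2, Per3, Nr1d2 and Dbp with KI below WT, against 39.8% of all genes tested. Of the 30 tested genes in the wider lists 0 passed at 1 week by the value table. Ucp3 had -0.55 ± 0.18 by the value table and -0.28 ± 0.25 by the scanner files. Arntl2, a paralogue of Arntl, had -0.33 ± 0.13 by the value table and 0.04 ± 0.18, of the other sign, by the scanner files.

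At birth, where both records name the same arrays, 0 of 10 members passed the limma threshold, against 0.0381% of all genes tested, and 0 had an unadjusted p under 0.05, against 4.71%. The KI minus WT differences ranged from -0.21 ± 0.12 for Cry2 to 0.23 ± 0.24 for Cry1, and the 95% intervals for Per2, Per3 and Dbp were -0.52 to 0.27, -0.55 to 0.18 and -0.40 to 0.29. Clock, Per3 and Cry2 lay lower on both KI arrays than on both WT arrays, against 31.9% of all genes tested without overlap. Per2 and Npas2 lie on chromosome 1 with Tnnt2, 165 and 434 positions from the edited gene in the order of the 891 tested genes of the chromosome.

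**Figure D4:**
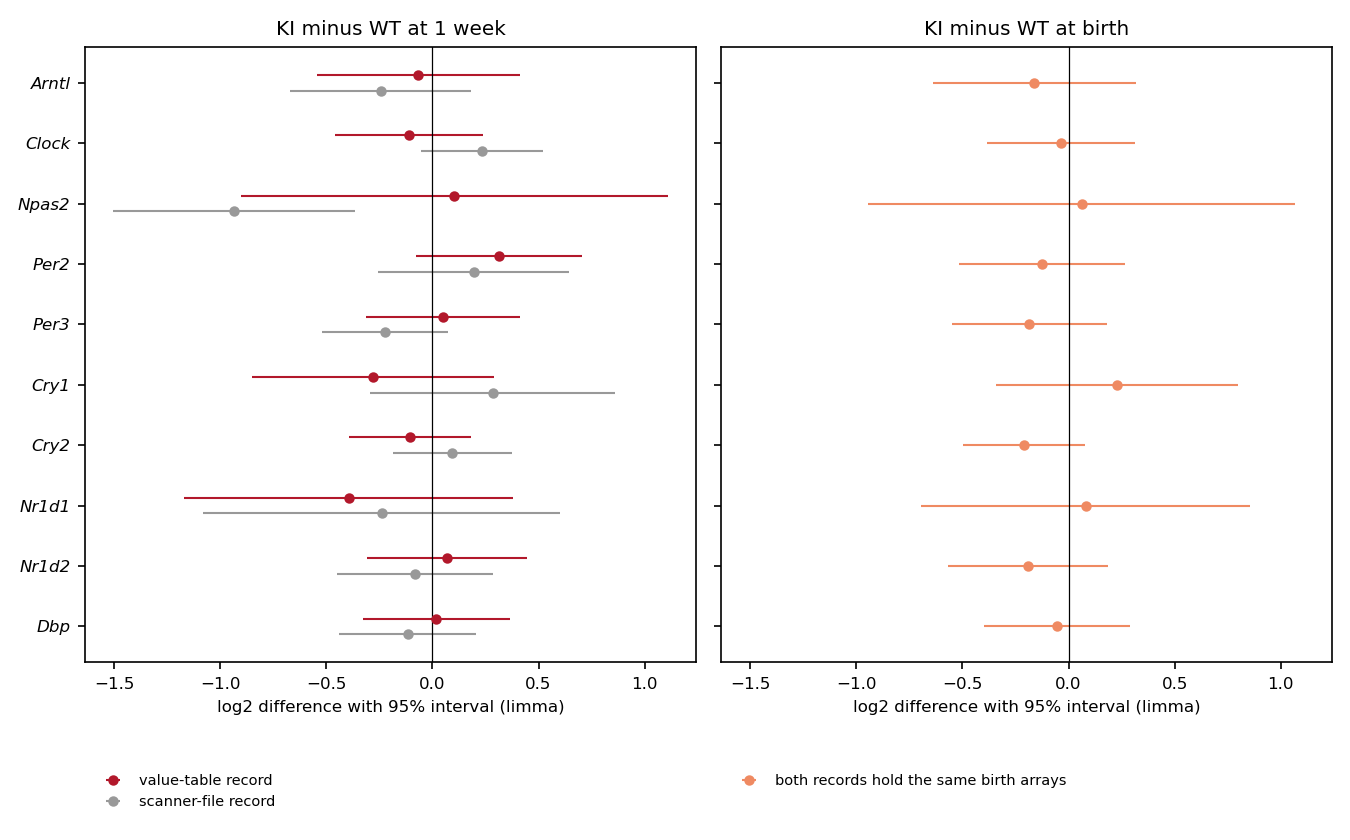
KI minus WT difference of each clock gene on the log2 scale with its 95% limma interval, at 1 week by the value-table and the scanner-file records (left) and at birth (right). Every interval spans 0 except that of Npas2 at 1 week in the scanner-file record, which lies below 0.

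Since the hour of collection is unknown, the members were also set side by side on each array, as differences from the mean of the 4 arrays of the same age. At birth KI replicate 1, the array marked for evaluation by the quality check, stood low, with 1 of 10 members above the birth mean. WT replicate 2 stood high, with 9 of 10 above it, and the other 6 arrays of the series had between 3 and 6. On KI birth replicate 1, Nr1d1 was -0.33, Arntl -0.30, Npas2 -0.28 and Nr1d2 -0.23 from the mean. On WT birth replicate 2, Nr1d1 was 0.36, Nr1d2 0.25, Per2 0.24, Arntl 0.18 and Dbp 0.13 from it, and Cry1 was the exception at -0.25. The median of all genes tested was 0.01 on the first of these arrays and -0.02 on the second.

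In both genotypes at birth, replicate 2 exceeded replicate 1 in the same 5 of 10 members, against 27.2% of all genes tested. The excess was 0.74 in KI and 0.79 in WT for Nr1d1, 0.27 and 0.30 for Nr1d2, 0.24 and 0.20 for Dbp, 0.44 and 0.19 for Arntl and 0.63 and 0.21 for Npas2. Per3 (-0.18 in KI and -0.08 in WT) and Cry1 (-0.20 and -0.27) were instead lower in replicate 2 in both genotypes. Replicate numbers name arrays and have no order, so agreement counts in either direction. The 27.2% is for 1 direction only, and the share of all genes that agree in either direction was not computed. Nothing in the labels says that a number marks a shared litter or hour. At 1 week the same genes were spread less (Nr1d1 between -0.38 and 0.25, Nr1d2 between -0.10 and 0.05, Dbp between -0.06 and 0.07 from the mean), with Npas2 the exception. On the brightest probes array D stood apart there, with Npas2 at -0.66, Cry1 at 0.50 and Clock at 0.23 from the mean of the 1-week arrays. The other Cry1 probe did not show this, at -3.33, -2.77, -3.33 and -3.32 on arrays B, C, A and D. Nor did the next brightest Clock probe, at 0.60, 0.83, 0.42 and 0.42 in that order. The dimmest Clock probe, well above background on only 3 arrays, was highest on array D, at -4.29 against -4.32 on array B.

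Over the 8 arrays, after each age's mean was removed, Arntl had a Pearson r of 0.87 with Dbp, 0.82 with Nr1d2, 0.79 with Npas2 and 0.67 with Nr1d1. Dbp had 0.89 with Nr1d2 and 0.80 with Nr1d1. Npas2 had 0.72 with Dbp and 0.47 with Nr1d1. In the adult heart rhythm given above, Arntl and Npas2 are instead high when Nr1d1 and Dbp are low. The r values here are over differences between arrays of 1 age, which may be technical in part or in whole. They are not over the hours of a day and so do not give the phase of a rhythm. The reason for the positive values was not tested. Positive r did not extend to all activators or all of the genes they drive. Clock had -0.88 with Npas2, -0.49 with Arntl, -0.40 with Dbp, -0.28 with Nr1d2 and -0.04 with Nr1d1, and 0.73 with Cry1. Arntl had -0.69 with Cry1, 0.20 with Cry2 and -0.07 with Per2. For Per2 and Per3 the r with any other member lay between -0.41 and 0.47. These are descriptions over 8 arrays that share a slide, a scan and, in part, the level of array D, and no test was made. Each r used the brightest probe of a gene, and r was not computed for the other probes. Among the 1-week arrays the brightest Arntl probe was lowest on array D (-0.84), where its 2 dimmer probes were highest (-1.89 and -2.15).

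**Figure D5:**
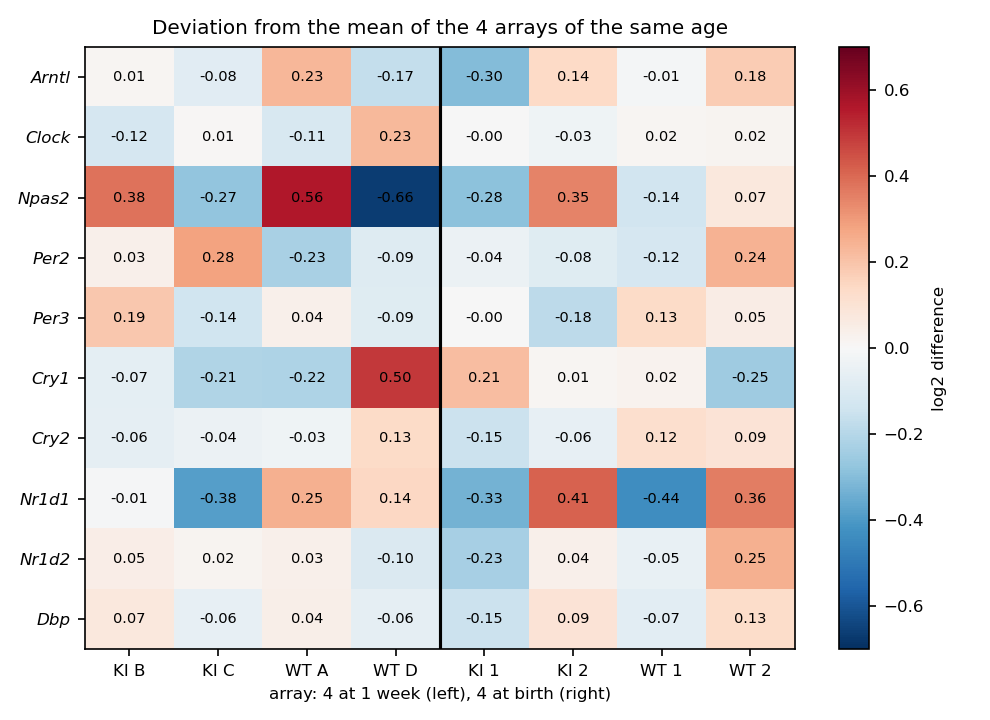
Difference of each clock gene (rows) on each array (columns) from the mean of the 4 arrays of the same age, in log2 units, with 1 week left and birth right. Nr1d1 ranges from -0.44 to 0.41 at birth and Npas2 from -0.66 to 0.56 at 1 week.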

How the data were processed

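Per the file headers, the deposited scanner files held each spot's processed intensity, which the scanner software had corrected for background within the array, without normalization between arrays; the deposited flags (other) were coded 0 or 1. The headers name Feature Extraction 11.0.1.1 and mm9, whereas the submitters' processing notes name version 9.1. In the deposited value table stood the same intensity, averaged over spots: each of its columns equalled the scanner file of 1 sample over 56305 probes with 1 spot (relative tolerance 0.0001), but for 3 of the 1-week columns that file is labelled as another sample. The main fits took the value table's samples and the alternatives the scanner files'. From 62976 features, controls were left out and spots averaged, leaving 56605 probes. The authors' deposited intensity was log2 transformed here and each array's 75th percentile subtracted. The brightest probe stood for a gene, named by accession through a RefSeq table. Genes entered the test where 1 or more groups had both arrays well above background. Group means over all 8 arrays were modelled with limma 3.58.1 (R 4.3.3; 4 residual degrees of freedom) with Benjamini-Hochberg adjustment over 15744 genes (15757 in the scanner-file record) and a threshold of 0.05, after a test on simulated data. Values after ± are standard errors. Python 3.11.15 was used for summaries and motif searches.

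Members and lists were chosen with earlier results of these data known. The text names all members and, from each of 4 lists of clock-related genes, up to 4 genes with the smallest p for age and up to 2 for genotype at 1 week. Some genes that this rule names are not reported here. For Arntl and Dbp it also names the 5 genes with the most similar variation over arrays. Alternatives covered the record, background correction (normexp with offset 50, on median signals because no mean signal was held), normalization, probe filter, probe choice, a replicate block, the arrays in the fit and leaving out each array. Because mm9 differs from the build of the gene table, its coordinates are given only for the promoter windows.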

Additional observations from a re-analysis of the deposited data

How the results depend on the processing

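The 10 clock genes were refitted under 17 alternatives, 8 of which left out an array. The calls of Per2 and Per3 over both genotypes held in all 16 alternatives that could be fitted for that comparison, between -1.19 and -0.71 for Per2 and between 0.72 and 0.89 for Per3. The count of members past the threshold over both genotypes was 5 with normexp, which added Clock and Cry2, and ranged from 2 to 6 when each array was left out; leaving out WT 1-week replicate 1 gave 6, adding Clock, Cry1 and Cry2. In KI the count was 3 with normexp, which added Dbp (0.55, adjusted p = 0.0425), 1 with the mean of all probes and 0 to 2 without an array, and 0 without KI 1-week replicate 1 or KI birth replicate 2. In WT it was 1 with no filter on dim probes, 1 with the mean of all probes, 1 with only the arrays compared, and 1 to 2 without an array, with Cry1 in place of Per3 without WT 1-week replicate 1. Genotype and age-by-genotype counts stayed at 0 in all alternatives run.

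The sign reversed at times for 24 of 60 results, each of which missed the threshold; the cause was not tested. With the mean of all probes, age gave 0.21 for Arntl and 0.013 for Fbxw11, KI minus WT at birth gave 0.017 for Arntl, 0.069 for Clock and 0.084 for Per2, KI minus WT at 1 week gave -0.028 for Per2 and -0.00535 for Per3, and age by genotype gave -0.11 for Per2. Quantile normalization gave -0.028 for Npas2 with age and -0.030 for Dbp at 1 week, and a percentile over probes detected on all arrays gave -0.020 for Dbp at 1 week and -0.0036 for Npas2 with age by genotype. With normexp, Npas2 gave -0.047 at birth, -0.11 at 1 week and -0.058 with age by genotype. The scanner-file record gave, for KI minus WT at 1 week, 0.23 for Clock, -0.94 for Npas2, -0.23 for Per3, 0.28 for Cry1, 0.093 for Cry2, -0.082 for Nr1d2, -0.12 for Dbp and 0.037 for Arntl2, and for age by genotype -0.040 for Per3, -0.062 for Dbp and -0.997 for Npas2.

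Leaving out each array in turn gave ranges that crossed 0 for age in Npas2 (-0.23 to 0.38) and Nr1d1 (-0.33 to 0.070), and for age by genotype in Dbp (-0.049 to 0.20) and Npas2 (-0.57 to 0.65). For KI minus WT at 1 week they were -0.26 to 0.13 for Arntl, -0.28 to 0.059 for Clock, -0.51 to 0.71 for Npas2, -0.11 to 0.21 for Per3, -0.64 to 0.077 for Cry1 and -0.047 to 0.083 for Dbp. At birth they were -0.38 to 0.060 for Arntl, -0.25 to 0.38 for Npas2, -0.30 to 0.055 for Per2, -0.32 to 0.48 for Nr1d1 and -0.18 to 0.067 for Dbp. A group left with 1 array was assumed to vary like the others.

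Replicate differences correlated at 0.286 between KI and WT at birth over 15744 genes, and between -0.137 and 0.165 over the other pairs of groups. The labels give no shared litter, batch or day, and not every pair was above 0.1, so replicate numbers were not taken to pair the samples; whether birth arrays of 1 number share a source was not tested. With the replicate number as a block the members past the threshold were 3 over both genotypes, 2 in KI and 2 in WT, as without it, and Bhlhe40 had an adjusted p of 0.0574.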

Other observations

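The genes whose age-centred log2 levels followed 2 of the clock genes most closely over the 8 arrays were listed without a test. For Arntl, the highest Pearson r values were 0.990 for Plin5, which encodes a lipid droplet protein of oxidative tissue, 0.986 for Zfp746, 0.982 for Map2k6, a kinase upstream of p38, 0.971 for Coro1b, an actin regulator, and 0.966 for Ddrgk1. For Dbp they were 0.995 for Castor1, an arginine sensor of the mTORC1 pathway, 0.979 for Serpinb9, a granzyme inhibitor, 0.974 for Txndc16, 0.971 for Pou3f1, a POU-domain transcription factor, and 0.968 for Syt3, a synaptotagmin. The Arntl and Dbp lists had no gene in common, although Arntl and Dbp themselves had an r of 0.87. Picking the highest r among 15744 genes over so few arrays gives high values by selection, so these r values are descriptions of the arrays.

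The 5 genes nearest to Arntl differed in their age difference: Plin5 had 0.73 for 1 week minus birth on the log2 scale, and Zfp746, Map2k6, Coro1b and Ddrgk1 had between -0.20 and -0.03. Those nearest to Dbp spread from -1.0 for Pou3f1 to 1.19 for Syt3. Likeness within an age therefore went with different directions across the ages.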
